A study of Homo sapiens with 12 samples.

Results

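The wide open regions of the retinal pigment epithelial line ARPE-19 that had no peak in the embryonic stem cell line H7 numbered 1683, of 81770 merged autosomal regions in all (2.06%). They were chosen from the ATAC-seq peak calls themselves. A region is a stretch of hg19 where peaks of any of the 6 libraries overlap by at least 1 base. An ARPE-19-only region was one called in each of the 3 ARPE-19 replicates but in none from H7, which held for 21378 regions, or 26.1% of all merged regions. A member had in addition a merged width of at least 700 bases and began in a 1 Mb window that held fewer than 20 ARPE-19-only regions. The calls, the width and the local density are therefore the terms of the choice, and no test was made on them.

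Both groups are cell lines, and the labels name no treatment or genetic change: ARPE-19, a spontaneously arising line of the retinal pigment epithelium grown in medium with serum, and H7, a human embryonic stem cell line grown in mTeSR Plus. Each had 3 libraries of 500000 cells, and the labels speak of triplicates but do not say if these were independent cultures, so the SDs below may be technical. The label of either line could not be checked against marker genes, because gene models of hg19 were not used here, and for the same reason no region is assigned to a gene. The 6 samples of chromatin contacts (4C) were not analysed here. An ARPE-19 list held 38872 to 46942 autosomal peaks and an H7 list 8295 to 14725. The genome-wide background recovered from each list, a measure of relative depth, was 0.425 to 0.483 expected reads per position in ARPE-19 and 0.592 to 0.653 in H7.

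In ATAC-seq the transposase Tn5 cuts and tags DNA that is not wrapped in nucleosomes or otherwise covered. A single regulatory element with its bound factors usually leaves a gap of about the length that a nucleosome would take, and a broader stretch can arise where neighbouring nucleosomes are also displaced or where several elements lie side by side. Promoters and clustered enhancers are known for such broad openings. A merged region can also be wide because the peaks of different libraries are shifted against each other, so the peaks of each library were described separately.

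The members were a minority at the upper end of a continuous range of widths. Of the 20367 ARPE-19-only regions outside dense windows, 1683 (8.26%, Wilson 95% interval 7.89 to 8.65, counting error only) reached 700 bases, and the other 18684 were narrower, with a median of 413 bases. The median member measured 793 bases, with quartiles of 739 and 885.5 and a maximum of 1667. Only 173 members (10.3%) reached 1000 bases. No gap separated the members from the rest. Just inside the limit lay 10 members of 700 bases, and just outside it 14 regions of 699 bases. The first 3 of each, with chromosome names sorted as text, are given here. Those inside lay on chromosome 1 from 157980322 to 157981021 and from 230240338 to 230241037, and on chromosome 16 from 12897174 to 12897873. Their summit reads in replicates 1, 2 and 3 were 21, 17 and 30 for the first, 38, 44 and 33 for the second, and 8, 11 and 11 for the last. Those outside lay on chromosome 1 from 117689438 to 117690136 (27, 25 and 18 summit reads), on chromosome 11 from 85358534 to 85359232 (12, 22 and 21) and on chromosome 12 from 41392935 to 41393633 (19, 16 and 18). The mean percentiles of -log10 q were 79.6, 95.7 and 32.1 for the 3 inside and 86.8, 78.1 and 85.8 for the 3 outside, so the weakest and the strongest of the 6 were both inside. At the limit of density, 38 members lay in windows with 19 ARPE-19-only regions and had a median width of 799 bases, and 15 wide regions lay in windows with 20 and had a median of 785.

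Most members were not this wide in every library. The widest peak inside a member had a median of 619 bases in replicate 1, 569 in replicate 2 and 663 in replicate 3, a mean of 617 ± 47.0 (SD, n = 3), against 306, 289 and 322 in the narrow regions. A peak of at least 700 bases was present in all 3 libraries for 142 members (8.44%), in 2 libraries for 245 (14.6%), in 1 library for 778 (46.2%) and in none for 518 (30.8%). Replicate 3, which has the longest list, had the widest peak in 734 members, replicate 1 in 549 and replicate 2 in 400. The stretch covered by peaks of all 3 libraries had a median of 414 bases, or 51.0% of the member. It reached 700 bases in 114 members and was 0 in 25, whose libraries overlapped only in chains.

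**Figure D1:**
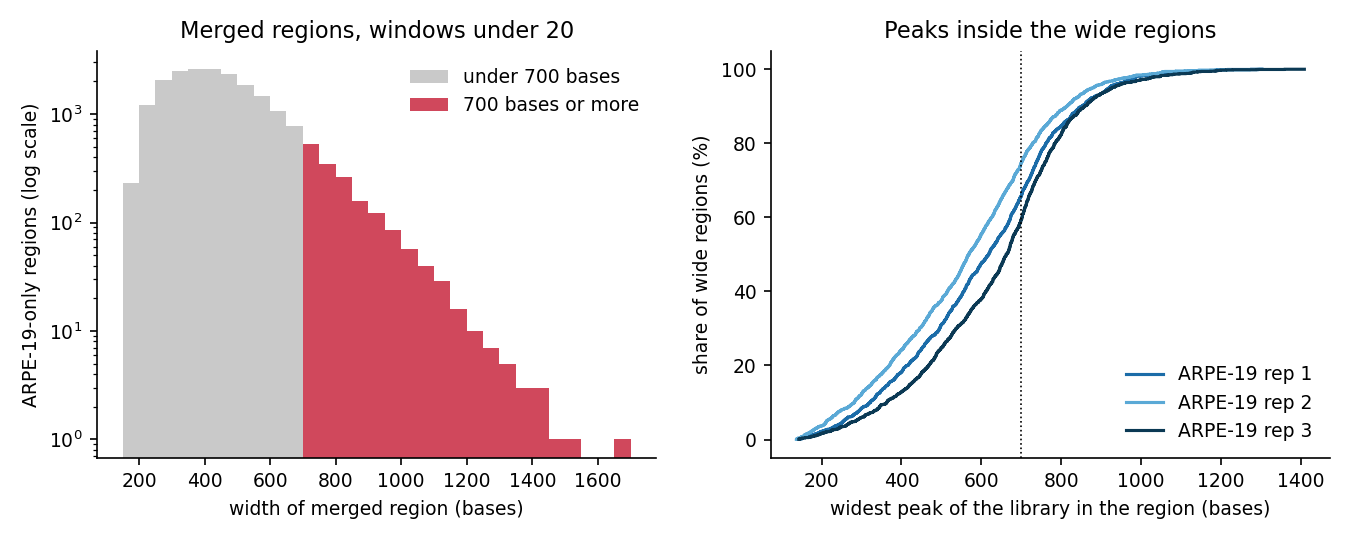
Left, number of ARPE-19-only regions outside dense windows by merged width in bins of 50 bases, on a log axis, with members (700 bases or more) in red. Right, cumulative share of the 1683 members by the width of the widest peak that each ARPE-19 library has there, with a dotted line at 700 bases. The counts fall without a gap at the limit, and the median peak of each library (619, 569 and 663 bases) lies below it.

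Members were also grouped by the number of libraries with a broad peak, of at least 700 bases. This grouping in itself favours a larger merged width and a larger common stretch. The 142 members with a broad peak in every library had a median merged width of 943 bases and a common stretch of 757 bases, and their median mean percentile of -log10 q within the ARPE-19 lists was 89.3. The 518 members with no peak of that size had a median width of 744 bases, a common stretch of 297.5 bases and a percentile of 67.9. Between them, the values rose with the number of libraries that had a broad peak: the percentile was 72.9 with 1 such library and 85.2 with 2. The local background around the summit rose in the same order, from 2.18 times the genome-wide background of the library with none to 3.58 times with 3. That background may count some of the peak's own reads, and its part in the width was not tested. The outermost of the strongest summits of the libraries were also compared. Their distance had a median of 103, 97.5, 90 and 91 bases with a broad peak in 0, 1, 2 and 3 libraries.

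Members were stronger than narrow regions of the same class, as a description, since calls and width share the same reads. The median member had 18, 16 and 19 reads at its summit in replicates 1, 2 and 3, and the median narrow region had 14, 12 and 15. Divided by the genome-wide background of each library, which gives the summit level used below, these medians were 37.3, 34.9 and 44.7 for members and 29.0, 26.2 and 35.3 for narrow regions. The authors' fold enrichment had a mean of library medians of 8.60 ± 0.40 in members and 7.77 ± 0.47 in narrow regions (SD, n = 3). In each ARPE-19 library the median member was thus above the median narrow region, but the quartiles overlapped, with 13 to 25 reads in members and 10 to 19 in narrow regions in replicate 1.

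Wide regions made up more of the stronger regions. When the ARPE-19-only regions outside dense windows were ranked by their mean percentile and divided into 10 bins of equal size, the share of wide regions was 3.68% in the weakest bin and 15.8% in the strongest. Among the 100 strongest regions 19 were members, and among the 1000 strongest 180 were. Most of the strongest regions were thus narrower than 700 bases. Spearman's rho between width and mean percentile was 0.28 over all 20367 regions. It was 0.27 over the 18684 narrow regions and 0.042 over the 1683 members, where the limit on width restricts the range. These are correlations across regions of the same libraries, which are not independent replicates.

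The 6 strongest members, by mean percentile, were high in all 3 libraries, which follows from the ranking by the mean over them. The summits of each lay within 97 bases of each other. The first lay on chromosome 8 from 31547467 to 31548193, with 63, 56 and 75 summit reads in replicates 1, 2 and 3. Its summits lay within 30 bases of each other, and its peaks were 654, 372 and 526 bases wide. The second, on chromosome 1 from 176625322 to 176626111, had 62, 65 and 72 summit reads and summits within 6 bases. The next lay on chromosome 9 from 73517221 to 73518068, with 65, 57 and 64 reads, and peaks of 841 and 810 bases in replicates 1 and 3 but 521 in replicate 2.

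The fourth of these members, on chromosome 11 from 131941895 to 131942630, had 55, 55 and 72 summit reads, and 633 of its 736 bases were covered in all 3 libraries. The one on chromosome 15 from 93347014 to 93347774 had 58, 66 and 73 reads and was the most uniform of the 6, with peaks of 750, 746 and 718 bases and a common stretch of 92.9% of its length. It also lay nearest to an H7 peak, at a distance of 4432 bases, where the other 5 were 16656 to 117053 bases away. The last, on chromosome 2 from 80280770 to 80281809, had 59, 56 and 68 reads, and its 1040 bases came from a peak of 978 bases in replicate 3 and shorter ones of 495 and 593 in the others, of which replicate 2 had 2. The summit levels of the 6 averaged 134 to 147, all more than 3 times the median of the members.

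**Figure D2:**
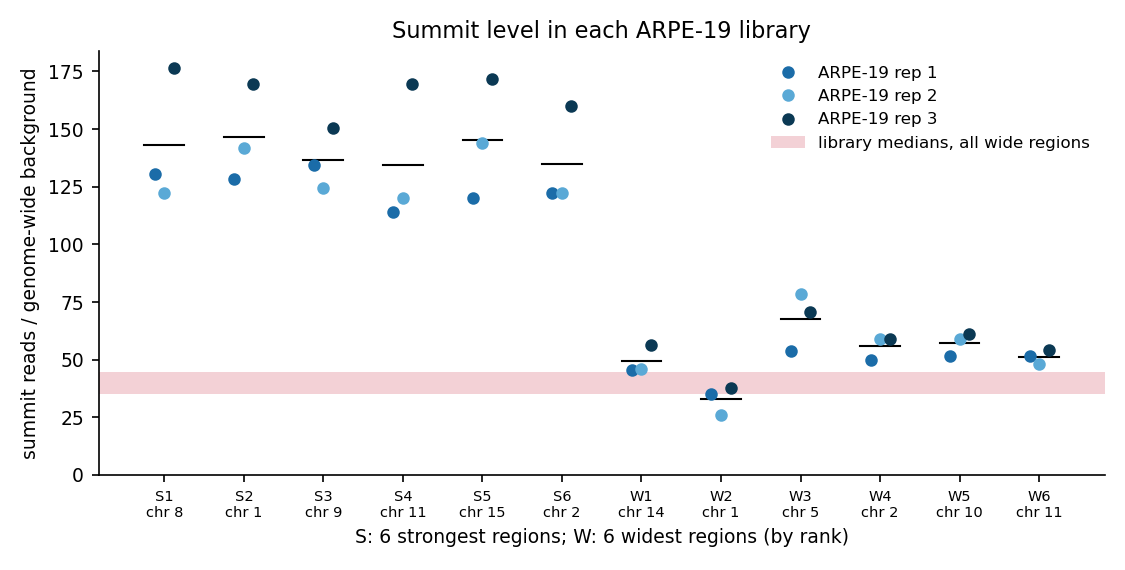
Summit level (reads at the summit over the genome-wide background of the library, no unit) of the 6 strongest (S) and the 6 widest (W) members in each ARPE-19 library; black bars are means of the 3 libraries, and the red band spans the library medians of all members (34.9 to 44.7). The strongest members lie between 114 and 176 in every library, and the widest between 26.2 and 78.6.

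The 6 widest members were not the strongest ones, and 5 of them held more than 1 peak in at least 1 library. The widest lay on chromosome 14 from 81867131 to 81868797 (1667 bases). It had 2 peaks in replicates 1 and 2 and 3 peaks in replicate 3, with the highest summit of each library, at 22, 21 and 24 reads, within 100 bases near the left end. A further summit of 16, 14 and 13 reads lay near the right end in all 3 libraries. The second, on chromosome 1 from 167683539 to 167685082 (1544 bases), had 2 peaks in every library. Its left summits lay at 167683672, 167683690 and 167683694 with 14, 12 and 16 reads, and its right summits at 167684758, 167684708 and 167684702 with 17, 10 and 13 reads. The right peak was the higher one in replicate 1 and the left one in replicates 2 and 3, so the strongest summits were 1068 bases apart, the largest distance among the members, although summits recurred at both ends in every library.

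In the next 2 regions by width the highest summits of the 3 libraries coincided more closely. On chromosome 5 from 98396276 to 98397744 (1469 bases) the highest summits had 26, 36 and 30 reads and lay within 15 bases. The peaks around them reached out to the right in replicate 1 (1172 bases) and to the left in replicate 3 (867 bases), and replicate 2 had a separate peak of 11 reads at the right end. On chromosome 2 from 103583167 to 103584600 (1434 bases) the summits had 24, 27 and 25 reads and lay within 42 bases, and replicate 2 had a separate peak of 8 reads at the left end.

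On chromosome 10 from 47056668 to 47058078 (1411 bases) the summits had 25, 27 and 26 reads but were spread over 481 bases. Their local background was 7.45, 6.02 and 8.44 times the genome-wide one in replicates 1, 2 and 3, the highest of the 6 widest members. Any share of reads from repeated sequence in it was not tested. The region on chromosome 11 from 59685603 to 59687011 (1409 bases) was the only one of the 6 with 1 peak per library. These peaks were 802, 937 and 1409 bases wide, with 25, 22 and 23 summit reads and summits within 40 bases, and the whole member was a single peak in replicate 3.

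**Figure D3:**
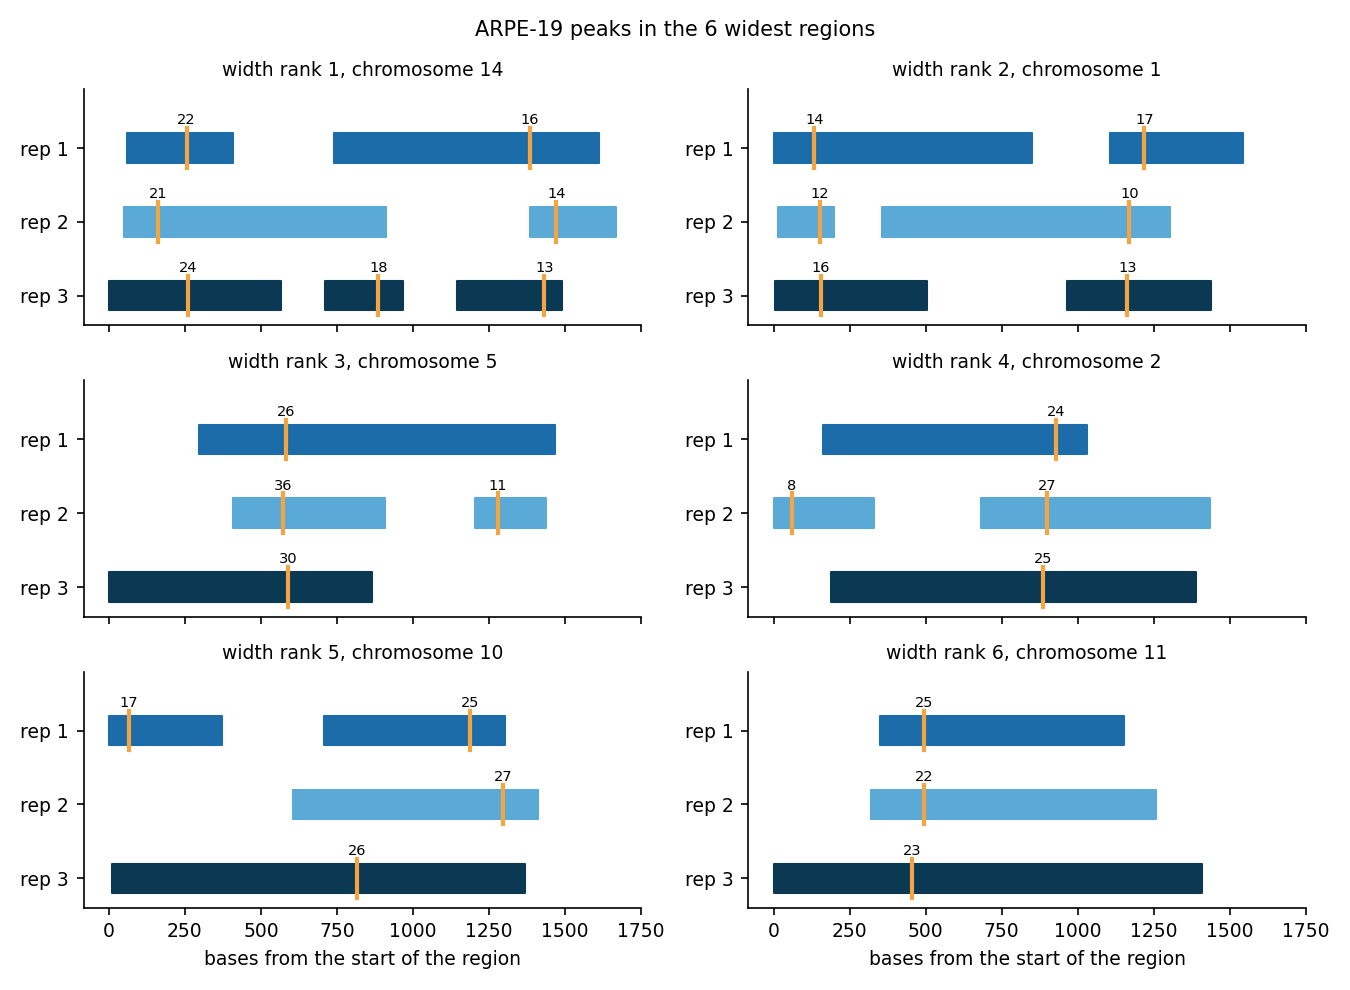
Peaks of ARPE-19 replicates 1, 2 and 3 (bars) in the 6 widest members, by position in bases from the start of the merged region; orange ticks are summits, with the number of reads at each. In 5 of the 6 a library has more than 1 peak, and on chromosomes 14 and 1 the summits at both ends recur in every library.

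Over all members, 1392 (82.7%) had exactly 1 peak in each ARPE-19 library, against 99.6% of the narrow regions. The other 291 had 2 or more peaks in at least 1 library: 222 in 1 library, 66 in 2 and 3 in all 3. In these libraries neighbouring summits lay a median of 555 bases apart (quartiles 471 and 652, 365 neighbouring pairs) and the gap between the peaks had a median of 233 bases. The highest peak had a median of 15 summit reads and the lowest 10. In most of the 291, then, the additional peak was called in 1 library only. Members with several peaks were wider, with a median of 909 bases against 779.5, and stood lower in the lists, at a percentile of 64.2 against 77.8. Separate peaks and the gap between them take up width. The choice by width thus favours several peaks in members over narrow regions, and a larger width where there are several.

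Between 2 ARPE-19 libraries the strongest summits of a member lay a median of 54 bases apart for replicates 1 and 2, 53 for 1 and 3 and 59 for 2 and 3. The distance between the outermost of the 3 summits had a median of 97 bases in members and 65 in narrow regions, while the median merged widths were 793 and 413 bases. It was at most 50 bases in 398 members (23.6%) and in 36.3% of the narrow regions. At the other end, 316 members (18.8%) had summits at least 300 bases apart, against 1.93% of the narrow regions, in which there is less room for it. Those 316 stood lower in the lists, at a median percentile of 55.6, than the 398 with close summits, at 86.0. A weak summit is placed by few reads, and how far counting error moves it was not tested.

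**Figure D4:**
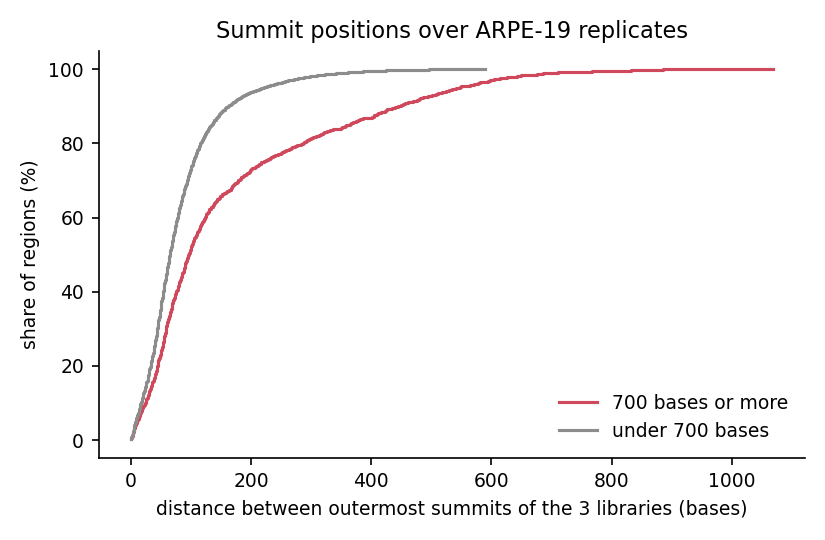
Cumulative share of regions by the distance in bases between the outermost of the strongest summits of the 3 ARPE-19 libraries, for the 1683 members (red) and the 18684 narrow ARPE-19-only regions outside dense windows (grey). The curve of the members lies below that of the narrow regions from 50 bases (23.6% against 36.3%) onward, with 18.8% of members and 1.93% of narrow regions at 300 bases or more.

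The sides of each peak were also measured from its summit. From the summit to the nearer edge of its peak the median was 174, 159 and 190 bases in replicates 1, 2 and 3, and to the farther edge it was 406, 374 and 420. In narrow regions these medians were 100, 95 and 108 to the nearer and 197, 186 and 206 to the farther edge. Both sides were thus longer in members, which the choice by width favours, and the farther side is the longer one by definition.

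Replicates ranked the members alike. Spearman's rho of the summit reads over the 1683 members was 0.83 between replicates 1 and 2, 0.83 between 1 and 3 and 0.84 between 2 and 3. Over the narrow regions it was 0.74 to 0.76. Over the wide regions with a peak in all 6 libraries it was 0.83, 0.85 and 0.86, so such values were not particular to the members. These values describe regions of the same 3 libraries and carry no test. After each library was scaled to its median, the standard deviation over the 3 libraries had a median of 15.8% of the mean in members. The summit level was highest in replicate 3 in 1136 members, in replicate 1 in 339 and in replicate 2 in 208, and narrow regions had the same order with 11515, 4231 and 2938.

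The weakest members, singled out after their values were seen, had few reads. On chromosome 6 from 74019460 to 74020195 the summits had 5, 6 and 5 reads, and its 736 bases came mostly from a peak of 725 bases in replicate 1. On chromosome 7 from 99036349 to 99037210 they had 8, 5 and 7 reads. On chromosome 10 from 670692 to 671517 they had 8, 8 and 10, and no base was covered in all 3 libraries. The fewest summit reads of any autosomal peak were 4 in each ARPE-19 library and 5 to 6 in H7, close to the values of these members. A missing H7 peak says only that none was called, not that the chromatin was closed. The H7 lists were shorter although their genome-wide background, the measure of relative depth, was higher. It was 0.592 to 0.653 in H7 and 0.425 to 0.483 in ARPE-19. Why fewer H7 peaks were called was not tested.

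Whether wide regions recur in data not used to choose them was examined by leaving out one replicate number of both lines and applying the same rule to the other 4 libraries. Of 1154 wide regions chosen without replicate 1, 1132 (98.1%) had a peak in ARPE-19 replicate 1, where 51.8% of all merged regions of the 4 lists did. Without replicate 2 it was 1197 of 1265 (94.6%, against 46.3% of all regions), and without replicate 3 it was 1059 of 1074 (98.6%, against 52.6%). Narrow regions chosen in the same way had a peak in 84.2%, 79.0% and 90.1%. A higher share than over all merged regions follows from the choice, which asks for a peak in both other ARPE-19 libraries. All merged regions include those called in a single library or only in H7. Wide regions with a peak also had more summit reads there than narrow ones, as given below. A wide region offers more bases to be overlapped, and the 3 choices share libraries, so no test was made.

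In the left-out H7 library a peak was found in 73 of the 1154 wide regions (6.33%), 77 of the 1265 (6.09%) and 35 of the 1074 (3.26%) for replicates 1, 2 and 3. The shares over all merged regions were 11.9%, 11.2% and 8.78%, and over narrow regions 2.87%, 2.88% and 1.68%. The lower share than over all merged regions follows from the choice, which asks for no peak in the other 2 H7 libraries. The difference from narrow regions, which are shorter, was not tested. These H7 peaks were small, with median widths of 241, 221 and 210 bases, and none reached 700.

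Width was carried over to the left-out ARPE-19 library in part. The widest peak there had a median of 569, 540 and 619 bases in the wide regions and 312, 292 and 328 in the narrow ones, for replicates 1, 2 and 3. It reached 700 bases in 29.8%, 22.3% and 34.7% of the wide regions with a peak and in 1.27%, 0.890% and 1.79% of the narrow ones. Median summit reads were 19, 17 and 20 against 14, 12 and 15. Regions with a wide merged span in 2 ARPE-19 lists thus had a higher median peak width in the left-out one than narrow regions in all 3 cases, and most of these peaks were below 700 bases.

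**Figure D5:**
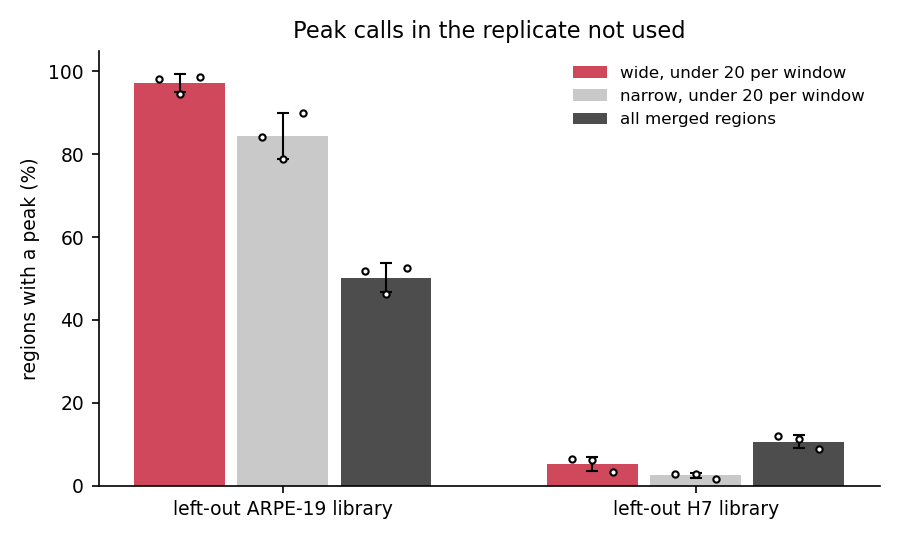
Share of regions with a peak in the library that was left out of the choice, for wide and narrow ARPE-19-only regions outside dense windows and for all merged regions; bars are means over the 3 left-out libraries, error bars are SD and points are single libraries. Wide regions had a peak in 94.6% to 98.6% of cases in ARPE-19 and in 3.26% to 6.33% in H7.

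The members were spread over all 22 autosomes, roughly as the other ARPE-19-only regions were. Chromosome 2 held 151, chromosome 1 held 143 and chromosome 4 held 135, while chromosome 22 held 5. As a share of the ARPE-19-only regions outside dense windows, members ranged from 3.57% on chromosome 22 (5 of 140, Wilson 95% interval 1.53 to 8.09) and 4.91% on chromosome 17 (20 of 407, 3.20 to 7.47) to 10.6% on chromosome 16 (56 of 526, 8.29 to 13.6) and 10.8% on chromosome 18 (68 of 631, 8.59 to 13.4). The intervals of chromosomes 15, 16, 17, 18 and 22 did not include the overall 8.26%, and those of the other autosomes did. They cover counting error only, and regions of one chromosome share their libraries.

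Within chromosomes the members occupied 1130 windows of 1 Mb. In 742 of these a member was alone, and the other 941 members shared their window with at least 1 more. The nearest other member lay a median of 389454 bases away. Another member lay within 100 kb of 21.2% of the members and within 10 kb of 23 of them. Of the 1495 regions with a peak in all 6 libraries, 13.4% had a member within 100 kb and 16 within 10 kb. Some of these shared regions lay in dense windows, which hold no member by the rule. Narrow ARPE-19-only regions, which are more like the members, are not set beside these shares. The difference was not tested. From a member, the nearest ARPE-19-only region of any width lay a median of 25644 bases away, close to the 26408 bases of narrow regions. By density, members made up 5.90% of ARPE-19-only regions in windows with 1 to 4 of them, 7.41% with 5 to 9, 9.37% with 10 to 14 and 8.77% with 15 to 19, and wide regions made up 7.72% in the windows of 20 or more that the rule leaves out.

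The window with the most members, singled out after its values were seen, ran from 25 to 26 Mb on chromosome 3 and held 7 members among 15 ARPE-19-only regions. The strongest of the 7 lay from 25534811 to 25535680, with 40, 39 and 43 summit reads in replicates 1, 2 and 3. Others of high rank lay from 25623455 to 25624196 (31, 19 and 37 reads), from 25645403 to 25646129 (34, 25 and 37) and from 25895723 to 25896486 (33, 23 and 42). In these 3 regions replicate 2 was the lowest and replicate 3 the highest. The widest of the 7, from 25926923 to 25928034, had 18, 21 and 19 reads.

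The closest members formed a group on chromosome 18, from 3593582 to 3594324, from 3595205 to 3595929 and from 3604547 to 3605249. The first 2 were 880 bases apart, and the last lay 8617 bases further on. Their summit reads were 11, 13 and 21, then 31, 12 and 29, then 10, 7 and 11, so that replicate 2 was low in the middle one. On chromosome 11 a strong member from 37525667 to 37526879 (50, 39 and 52 reads) lay 6052 bases from a weak one from 37532932 to 37533991 (6, 9 and 15 reads). On chromosome 7 the members from 158611051 to 158611867 (46, 41 and 56 reads) and from 158621848 to 158622832 (21, 24 and 28) were 9980 bases apart, each with summits within 17 bases. These were also singled out after their values were seen.

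H7 peaks lay about as far from members as from narrow regions. The nearest H7 peak was a median of 34369 bases from a member and 34898.5 bases from a narrow region. It lay within 10 kb of 282 members (16.8%) and of 18.9% of narrow regions, and within 1000 bases of 46 members (2.73%) and 2.28% of narrow ones. The median distance was 52105 bases without H7 replicate 1, the longest H7 list, 108250 bases with only peaks of a -log10 q of at least 5, and 19990 bases when a peak had to cover 50% of a region to count, which lets small H7 peaks lie inside a member.

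Wide regions were more frequent among shared regions than among those of one line. Of the 1495 regions with a peak in all 6 libraries, 441 (29.5%) reached 700 bases. Of the 2981 with peaks in all 3 ARPE-19 and 1 or 2 H7 libraries, 619 (20.8%) did. Of the 1470 H7-only regions, chosen in the mirrored way, 61 (4.15%) did. Few H7 peaks were this wide at all: 0.374% to 0.419% of the autosomal peaks of a list, against 1.80% to 2.49% in ARPE-19. A region merged from 6 lists can be wider by construction. Over all 1495 shared regions the widest ARPE-19 peak had a median of 426, 411 and 456 bases in replicates 1, 2 and 3. It reached 700 bases in 8.49%, 7.96% and 10.9% of them. Among the 20367 ARPE-19-only regions outside dense windows it did so in 579, 429 and 686, all of them members by definition. In the 441 wide shared regions, which the same limit on merged width selects, the medians were 593, 566 and 643 bases. In the members they were 619, 569 and 663. Summit levels in the 441 had medians of 43.5, 41.5 and 54.1 against 37.3, 34.9 and 44.7. Wide ARPE-19-only regions in dense windows, 78 in all, had a median merged width of 793.5 bases against 793, and levels of 39.3, 33.8 and 45.9. Their summit spread was 103 bases against 97. Both sets passed the same limit on merged width. None of these differences was tested.

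The number of members rests on the choices behind it. It was 1102 without ARPE-19 replicate 1, 1044 without ARPE-19 replicate 3 and 559 when each list was cut to its 8622 strongest peaks. Of these, 674, 524 and 500 were the same regions as among the 1683.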

How the data were processed

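Each of the 6 ATAC-seq libraries had 1 deposited peak list. The submitters' processing notes name hg19, MACS2 and bedtools without versions or settings. The aligner, the handling of duplicate reads and any shift of reads for Tn5 are not given in the sources used here; an unshifted read would move summits and edges by a few bases. Per peak, the deposited lists hold a score, the summit's fold enrichment and -log10 values of p and q. The fold was taken as the ratio of reads to local background, with 1 added to each. These are the authors' values per peak.

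Lists were merged on 22 autosomes. Strength is the percentile of a peak's -log10 q within its list. Summit reads and local background were solved from the deposited fold and -log10 p, within 0.001 for at least 99.988% of the nuclear peaks of each list. The most frequent background was taken as that of the library. Distances are gaps in bases, and coordinates are 1-based. Depth limits precision, since many summits hold under 20 reads, and these may include duplicates. No test was made, because the choice used the calls. Named regions are the 6 strongest and the 6 widest members and 3 on each side of the width limit; the 3 weakest and the clustered ones were added after values were seen. Members, rule and lists were chosen with earlier results of these data known. Planned results on genes and sequence were not run, since gene models and sequence of hg19 were not used. The steps were tested on simulated data. Scripts ran in Python 3.11.15 with matplotlib 3.10.9, scipy 1.17.1, pandas 2.3.3 and numpy 2.4.6.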

Additional observations from a re-analysis of the deposited data

How the results depend on the processing

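Percentiles in this section are means of the library medians, which gave 77.5 for the 1683 members. They are not the medians of the mean percentile used above. Other width limits moved most values. With at least 500 bases there were 6863 members with a median width of 603 bases, a percentile of 75.9, 1 peak per library in 94.7% and a summit spread of 78 bases. With at least 1000 bases there were 173, with a width of 1082, 1 peak per library in 46.2% and a spread of 111. In windows with fewer than 10 ARPE-19-only regions there were 645, with a percentile of 74.4 and 1 peak per library in 80.3%. Keeping peaks with -log10 q of 5 or more gave a percentile of 81.8, 91.8% with 1 peak per library, a spread of 87 and a distance to H7 peaks of 108250 bases. Lists cut to equal length gave 559 members, a percentile of 94.4, 99.5% with 1 peak per library and a spread of 69. Asking peaks to cover 50% of a region gave a percentile of 84.0, 85.0% with 1 peak per library and a spread of 91. Leaving out single libraries gave 1044 to 1782 members, widths of 785 to 795, percentiles of 76.9 to 79.3, shares of 82.2% to 88.3%, spreads of 55 to 98 and distances of 33754 to 52105 bases; with 2 ARPE-19 lists fewer peaks can merge and fewer summits enter the spread. Beyond such construction the cause was not tested. A limit of 30 regions per window gave 1759 members with 1 peak per library in 82.8%. Their width was 793, the percentile 77.4, the spread 97 and the distance 34369 bases. Windows shifted by 0.5 Mb gave 1670 members with 1 peak per library in 83.1%. Their width was 791.5, the percentile 77.4, the spread 97 and the distance 33967 bases. No paired analysis was possible because the result comes from no test. Depth limits the weakest members, which had 5 to 10 summit reads.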
